A study of Mus musculus with 10 samples.

Results

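The cytosolic ribosome makes proteins from mRNA, and each of its subunits is built from ribosomal RNA and a set of ribosomal proteins, most of them encoded by 1 gene each. These genes are among the most strongly expressed in any cell, their mRNAs often begin with a run of pyrimidines through which the mTOR kinase controls their translation, and many of their introns enclose genes for small nucleolar RNAs (snoRNAs), short RNAs that guide the modification of ribosomal RNA. In the pancreatic beta cell the ribosome carries the heavy load of proinsulin synthesis, which glucose raises quickly at the level of translation.

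The genes were chosen by symbol: Rpl or Rps followed by a number, with Rplp0, Rplp1, Rplp2 and Rpsa, leaving out the S6 kinases and rows named as pseudogenes. Of 84 matching symbols, 81 had a value of at least 10 in at least 5 libraries and are described here, 48 of the large and 33 of the small subunit, among 11711 genes that met the same condition and 17945 named genes in all. Rpl3l, Rps3a3 and Rps12 did not meet it. By the GENCODE annotation 79 of the 81 are protein-coding genes and 2, Rps12l1 and Rps4l, are pseudogenes.

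RNA from whole islets of C57BL/6 mice at 18 weeks of age was sequenced in 5 knockout (KO) and 5 control (CT) libraries. KO mice carried Pdx1-CreER together with Grk5 flox/flox, and CT mice Grk5 flox/flox alone, so that floxed Grk5 alleles were shared and the Cre transgene was not. Grk5 encodes a kinase of G protein-coupled receptors, and Pdx1-CreER is a tamoxifen-dependent Cre recombinase under a promoter active in beta cells and other Pdx1-expressing cells. Sex, the tamoxifen given to each group and whether each library came from 1 mouse are not given in the sources used here, and p-values therefore cover no more than how far these libraries scatter. Libraries were made from rRNA-depleted total RNA with random primers, which do not select polyadenylated mRNA. The values are the authors' normalized counts per gene, and fewer cells of a type and less RNA per cell cannot be told apart in them.

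Grk5 itself was at 94.4 to 269.8 in KO and at 127.9 to 386.9 in CT islets, overlapping ranges, with a log2 fold change of -0.55 ± 0.42 (SE) and an exact two-sided permutation p of 0.222 (5 against 5, smallest possible 0.00794). Its log2 fold change was -0.94 without controls 2 and 5 and also -0.94 with library quality weights, where its adjusted limma p was 0.877 and its unadjusted p 0.0277; these are whole-gene values and do not single out the floxed part. Esr1, whose sequence the CreER transgene shares in part, was at 1516.7 to 3176.8 in the KO libraries, and in CT at 2495.0 in control 2 and 773.5 in control 5 but at 2.0, 10.5 and 0.0 in controls 1, 3 and 4, so that control 2 and control 5 go against their labels. Results are therefore also given without these libraries. Beta cell markers summed to 968310 to 1280334 in KO and 957737 to 1179928 in CT islets, and acinar markers to 34180 to 91415 in KO and 23065 to 290950 in CT; every marker of the beta, alpha, delta and PP cell lists passed the filter above. Library totals ran between 5534386 and 7358040 normalized counts. If the commonest low value in a library stands for 1 read, knockout 1 was the shallowest with 2072839 reads and knockout 3 the deepest with 10951044.

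Rpl5 and 8 others, picked by their correlation with it over these same libraries, varied together between libraries of the same genotype. All 9 of these genes enclose annotated snoRNA genes. A few of the enclosed snoRNAs are printed to show what lies inside these genes. They come from GENCODE release M21 (GRCm38), as DNA in the 5′ to 3′ direction of the snoRNA. Capitals mark the short boxes that define the classes: TGATGA (C box) and CTGA (D box) in those that guide methylation, and the terminal ACA in those that guide pseudouridylation.
Snord21 (in Rpl5, chr5:107904555-107904648, plus strand): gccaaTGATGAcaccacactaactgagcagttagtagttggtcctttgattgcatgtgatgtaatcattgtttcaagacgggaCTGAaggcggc
Gm22270 (in Rpl5, chr5:107905177-107905308, plus strand): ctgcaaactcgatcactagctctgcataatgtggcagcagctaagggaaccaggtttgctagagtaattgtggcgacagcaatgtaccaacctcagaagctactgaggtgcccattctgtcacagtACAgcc
Gm26387 (in Rpl5, chr5:107907345-107907476, plus strand): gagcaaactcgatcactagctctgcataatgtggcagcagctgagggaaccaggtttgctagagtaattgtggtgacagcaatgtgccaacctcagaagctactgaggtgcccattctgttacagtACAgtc
Gm24016 (in Rps20, chr4:3835079-3835146, minus strand): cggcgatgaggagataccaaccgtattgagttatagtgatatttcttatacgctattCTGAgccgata
Snora65 (in Rpl12, chr2:32963291-32963420, plus strand): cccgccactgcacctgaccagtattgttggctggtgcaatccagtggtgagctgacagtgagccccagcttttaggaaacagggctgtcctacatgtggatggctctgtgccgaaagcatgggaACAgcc
Snora70 (in Rpl10, chrX:74272484-74272620, plus strand): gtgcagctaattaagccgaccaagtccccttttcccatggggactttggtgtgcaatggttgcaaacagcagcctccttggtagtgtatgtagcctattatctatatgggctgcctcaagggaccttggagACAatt
Gm22879 (in Rpl7a, chr2:26912218-26912291, plus strand): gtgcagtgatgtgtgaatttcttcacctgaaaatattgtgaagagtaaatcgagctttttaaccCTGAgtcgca
Snora64 (in Rps2, chr17:24720772-24720905, plus strand): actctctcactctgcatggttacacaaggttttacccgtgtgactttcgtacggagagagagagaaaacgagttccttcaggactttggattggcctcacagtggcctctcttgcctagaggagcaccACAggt
Snord15a (in Rps3, chr7:99482785-99482932, minus strand): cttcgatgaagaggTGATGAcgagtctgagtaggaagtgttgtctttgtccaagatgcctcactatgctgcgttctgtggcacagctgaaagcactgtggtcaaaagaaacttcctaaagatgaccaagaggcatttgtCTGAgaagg
Snord15b (in Rps3, chr7:99479563-99479707, minus strand): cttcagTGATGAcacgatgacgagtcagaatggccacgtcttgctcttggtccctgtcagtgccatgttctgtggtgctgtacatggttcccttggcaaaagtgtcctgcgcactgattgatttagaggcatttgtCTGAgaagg

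Gm22270 and Gm26387, both inside Rpl5, are near copies with the same base at 125 of 132 positions. Of the printed snoRNA genes, Gm22270, Gm26387 and Snord15a lie in no annotated exon of their host, and the other 7 lie inside an exon of at least 1 annotated transcript. In all, 29 of the 81 ribosomal protein genes (35.8%) enclose a snoRNA gene on the same strand, against 1.78% of all tested genes, and they hold 55 snoRNA genes, of which 23 lie inside an annotated exon. Of the 11711 tested genes 11200 were found in the annotation by symbol, and the rest count as enclosing none.

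The summed ribosomal protein genes made up 2.26%, 1.80%, 1.93%, 2.04% and 2.53% of the total in knockouts 1 to 5, against 2.25%, 2.02%, 2.22%, 1.99% and 2.15% in controls 1 to 5. Knockout 5 was the highest and knockout 2 the lowest of the 10 libraries, with all controls in between. The mean share was 2.11% ± 0.289 in KO and 2.13% ± 0.118 in CT islets (SD, n = 5 each), a difference smaller than the spread between libraries. The 29 snoRNA hosts accounted for 1.22% ± 0.225 of the total in KO and 1.26% ± 0.0947 in CT, and the other 52 genes for 0.894% ± 0.135 in KO and 0.862% ± 0.0604 in CT.

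**Figure D1:**
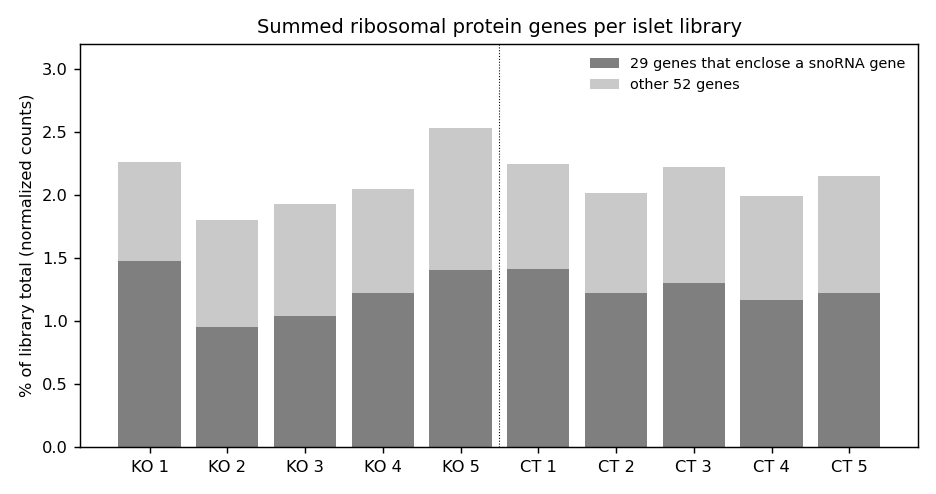
Summed normalized counts of the 81 ribosomal protein genes in each islet library, as a percent of the library total, with knockouts (KO 1 to 5) left of controls (CT 1 to 5). Dark bars are the 29 genes that enclose a snoRNA gene and light bars the other 52; the knockouts run between 1.80% and 2.53%, around the controls at 1.99% to 2.25%.

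The share depends on what else fills a library. Tmem38b, Zfp101 and 0610011F06Rik, named after their values were seen, took 28.1%, 5.86%, 9.01%, 14.5% and 12.5% of the total in knockouts 1 to 5, and 17.4%, 13.2%, 11.2%, 13.7% and 10.9% in controls 1 to 5. With these 3 genes taken out of the denominator, the ribosomal protein share was 2.49% ± 0.517 in KO and 2.45% ± 0.169 in CT (SD, n = 5 each).

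No ribosomal protein gene differed between KO and CT islets after adjustment over all genes. With limma on log2(value + 8) and Benjamini-Hochberg adjustment over 11711 genes, 0 of the 81 had an adjusted p under 0.05 and the smallest was 0.942; the background was 0%, no gene of the whole table being called. At an unadjusted p under 0.05 there were 2 of 81 (2.47%), Rpl7l1 higher and Rps12l1 lower in KO, against 5.01% of all genes (2.36% higher and 2.66% lower). That count was 4 without knockout 1, 3 without knockout 2 or knockout 5, and 1 without knockout 4, control 1 or control 5. The genes were not the same throughout: with library quality weights the 2 were Rpl10 and Rps20, both lower, without knockout 1 the 4 were Rpl10, Rps20, Rpl7a and Rps12l1, all lower, and without controls 2 and 5 the only one was Rpl10a, higher. Rpl10, Rps20 and Rpl7a are among the genes that varied with Rpl5, and knockout 1 was their highest library. With 1 library left out, 509 to 651 of the 11711 genes had an unadjusted p under 0.05. In 0 of the 81 were all KO values on 1 side of all CT values, which held for 0.862% of all genes. In the authors' deposited table, 0 of the 81 had an adjusted p under 0.05, the smallest adjusted p being 0.787, and 0 had an unadjusted p under 0.05, the smallest being 0.0660.

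The fold changes were mostly small, though on the log2 scale they ran between -2.15 (Rps12l1) and 1.79 (Rpl10a). They lay above 0 for 39 genes and below 0 for 42, that is 48.1% above 0 against 47.6% of all genes, and their median was -0.03, as was that of all genes. Among the large subunit genes 23 of 48 were above 0 and among the small subunit genes 16 of 33. The 29 snoRNA hosts had 11 values above 0 and a median of -0.07, and the other 52 genes had 28 and a median of 0.01. For 59 genes the log2 fold change was within 0.25 of 0, and for 65 the 95% limits lay between -1 and 1, so that a doubling or a loss of that size is outside those limits. Their median standard error was 0.23, against 0.56 for all genes. Their median level was 1196 normalized counts, against 137 for all genes. With knockout 5, the highest library for 36 of the 81, left out, 22 of the 81 were above 0.

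**Figure D2:**
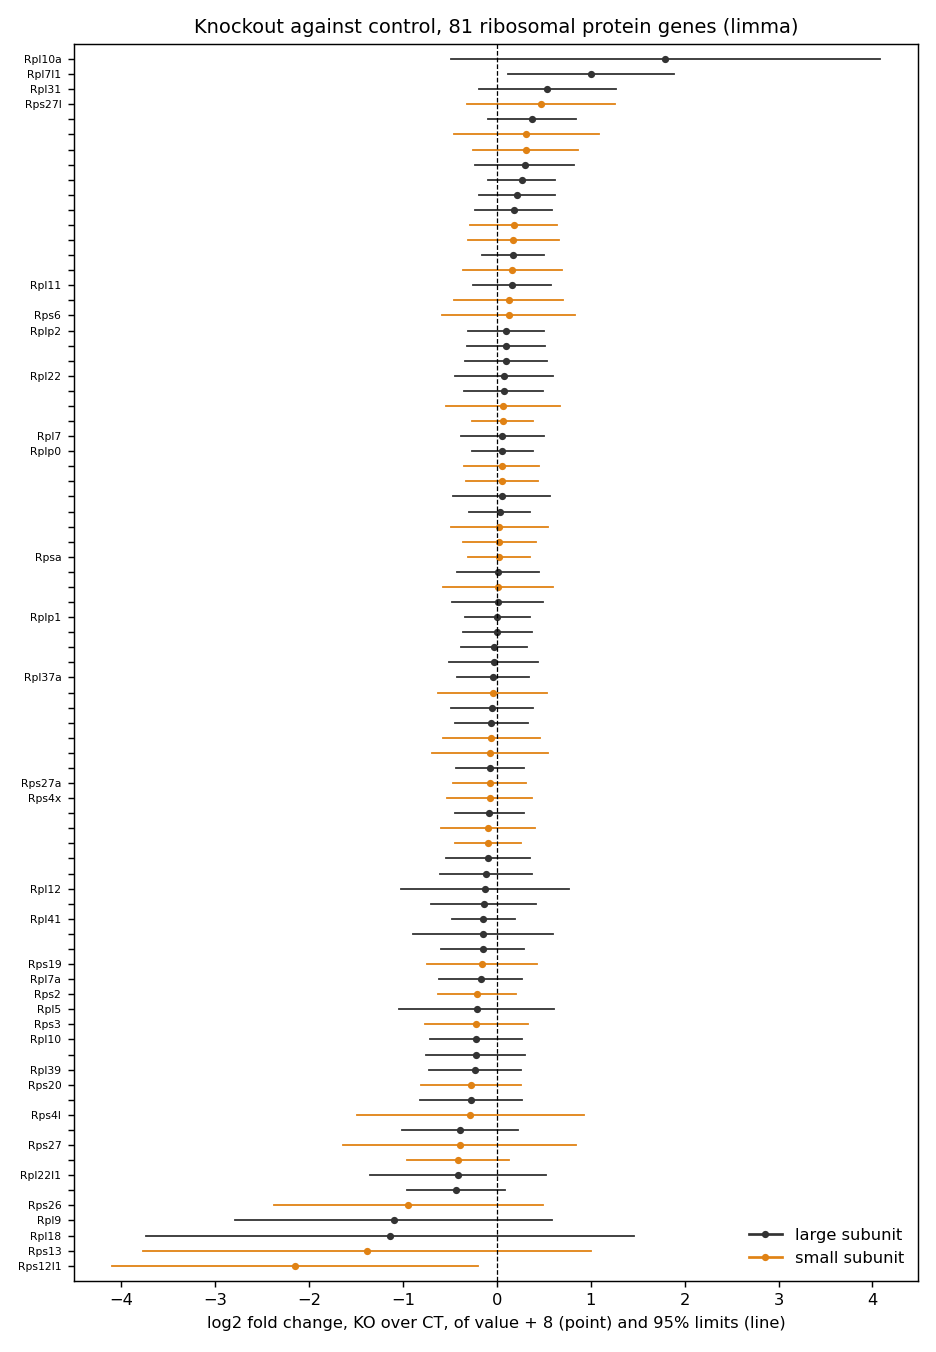
Log2 fold change, KO over CT, of each of the 81 ribosomal protein genes (points), sorted from the highest at the top with labels for 33 genes whose fold changes are examined singly, with 95% limits from limma (lines); black is the large and orange the small subunit. The points lie around 0 with a median of -0.03, and the limits cross 0 for all but Rpl7l1 at 1.002 and Rps12l1 at -2.15.

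Rpl5, a large subunit protein that joins the ribosome together with Rpl11 and the 5S rRNA and, when left unassembled, binds the p53 inhibitor MDM2, had the highest count of the set and 14.6% of its sum. It was at 35430.6, 8648.4, 12225.0, 19543.0 and 19645.0 normalized counts in knockouts 1 to 5, against 28738.3, 18166.4, 17941.3, 19130.5 and 16959.2 in controls 1 to 5. Knockout 1 was the highest and knockout 2 the lowest library, with all 5 controls between them. The mean was 19098 ± 10292 in KO and 20187 ± 4842 in CT islets (SD, n = 5 each), with a log2 fold change of -0.22 ± 0.36 (SE). Rpl11, its partner in the particle, did not follow this profile: it had 1603.4, 1383.7, 1115.6, 1420.9 and 1801.8 in knockouts 1 to 5 and 1422.4, 950.2, 1502.0, 1166.1 and 1531.7 in controls 1 to 5. Its values overlapped between the genotypes, with knockout 5 the highest and control 2 the lowest, and its log2 fold change was 0.16 ± 0.20 (SE).

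Rps20, a protein of the small subunit head, had 2306.2, 701.6, 929.6, 1414.3 and 1415.1 in knockouts 1 to 5, against 1790.9, 1536.1, 1373.3, 1561.1 and 1325.8 in controls 1 to 5. Knockout 1 was again highest and knockouts 2 and 3 lowest, and the log2 fold change was -0.27 ± 0.25 (SE).

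Rpl12, which lies at the base of the stalk where elongation factors bind, had 10763.7, 2097.5, 2758.6, 5031.6 and 4052.5 in knockouts 1 to 5, against 6639.3, 3964.5, 3637.4, 4577.2 and 4550.7 in controls 1 to 5. The KO values lay on both sides of the CT values. Because knockout 1 was so high, the KO mean (4941 ± 3448) was above the CT mean (4674 ± 1169, SD, n = 5 each) although the log2 fold change was -0.13 ± 0.40 (SE).

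Rpl10, one of the last proteins to join the large subunit, had 4878.9, 1524.8, 2054.8, 2766.8 and 2503.8 in knockouts 1 to 5, against 3406.4, 2822.0, 2856.6, 3291.4 and 2551.3 in controls 1 to 5. It too was highest in knockout 1 and lowest in knockout 2, with a log2 fold change of -0.22 ± 0.23 (SE). Rpl10-ps3, a row named as a pseudogene of Rpl10, had the higher mean in KO, with overlapping values. It averaged 1568 ± 515 in KO and 1135 ± 310 in CT islets (SD, n = 5 each).

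Ranked by Pearson's r with Rpl5 over the 10 libraries on the log2 scale, Rps20 (0.98), Rpl12 (0.97) and Rpl10 (0.96) were the closest ribosomal protein genes, and 8 genes reached an r above 0.8, among them Rpl7a (0.95), Rps2 (0.87), Rps3 (0.86) and Rpl39 (0.85). The points of each correlation share their libraries and scaling, so that r is a description. All 8 enclose snoRNA genes: they are 8 of the 28 hosts other than Rpl5, and 0 of the 52 other genes reached an r of 0.8. Hosting alone did not go with a high r, since the median was 0.32 among the hosts and 0.23 among the others, and the lowest host was at -0.58. The hosts also had the higher median level, 1927 normalized counts against 879 for the others, and the part of level in r was not tested. With knockouts 1 and 2 left out, r with Rpl5 was 0.92 for Rps20, 0.92 for Rpl12, 0.84 for Rpl10 and 0.81 for Rpl7a. It was then 0.88 for Rps2 and 0.87 for Rps3 but 0.51 for Rpl39, so that not all 8 stayed above 0.8. Rps15, which encloses no snoRNA gene, went from 0.0024 over all libraries to 0.799. The split between hosts and other genes is thus given for the 10 libraries only. Over all tested genes, 72 (0.615%) had an r above 0.8 and the median was -0.08.

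**Figure D3:**
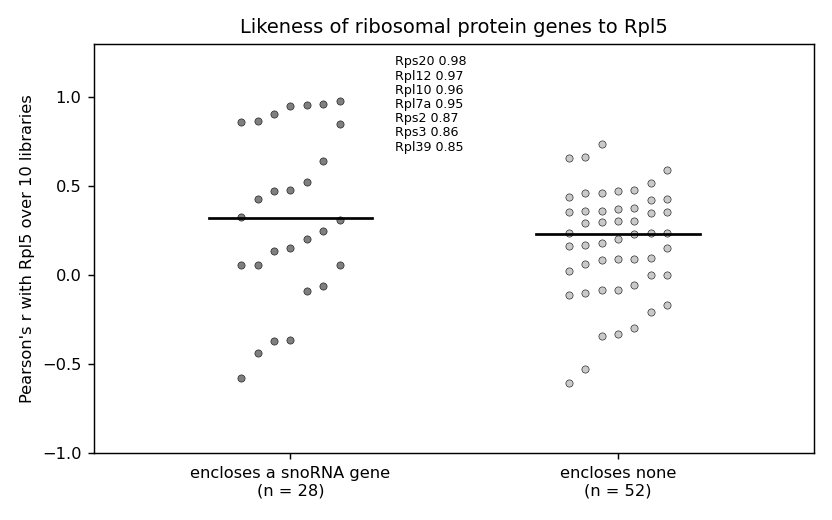
Pearson's r with Rpl5 over 10 libraries for ribosomal protein genes that enclose a snoRNA gene (28, Rpl5 left out) and those that enclose none (52); each point is a gene, horizontal lines are medians, and names with their r are given for genes above 0.8 that are described singly. All 8 genes above 0.8 are on the snoRNA side, while the medians, 0.32 and 0.23, lie close together.

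Rps3, a small subunit protein at the channel where mRNA enters, stood second with 8.79% of the summed counts. It was at 13711.0, 6448.4, 7113.9, 13753.5 and 15291.9 in knockouts 1 to 5, against 15641.3, 10826.2, 11250.5, 12049.7 and 12383.6 in controls 1 to 5. Here control 1 was the highest library and knockouts 2 and 3 stood below all controls, with a log2 fold change of -0.22 ± 0.25 (SE). It was named, with Rpl7a, Rps2 and Rpl39, after its values were seen.

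Rpl7a, of the large subunit, had 4352.6, 1539.6, 1955.8, 2483.6 and 2657.5 in knockouts 1 to 5, against 2377.5 to 3041.9 in CT. Rps2, near the mRNA entry channel, ran between 1274.2 and 2210.0 in KO and between 1531.0 and 2687.2 in CT. Rpl39, a very short protein of the exit tunnel, ran between 438.5 and 951.0 in KO and between 750.6 and 910.5 in CT. All 9 genes were lowest in knockout 2, 7 were highest in knockout 1, and in 8 control 1 was the highest control. Because they were picked by r with Rpl5 over these libraries, shared extremes follow from that choice and are no separate finding. Without Rpl5 and Rps3 the summed share of the set was 1.64% ± 0.195 in KO and 1.62% ± 0.0915 in CT islets (SD, n = 5 each).

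The median deviation of these 9 genes from their own mean was 0.75 in knockout 1 and -0.82 in knockout 2 on the log2 scale. Over the 68 ribosomal protein genes with lower r and no value of 0, it was 0.10 in knockout 1 and -0.16 in knockout 2. The 9 and the 68 were split by r with Rpl5 over the same libraries, so this contrast describes the split and tests nothing. For those 68 the highest median was that of knockout 5 (0.37), which was the highest library for 36 of all 81 genes.

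**Figure D4:**
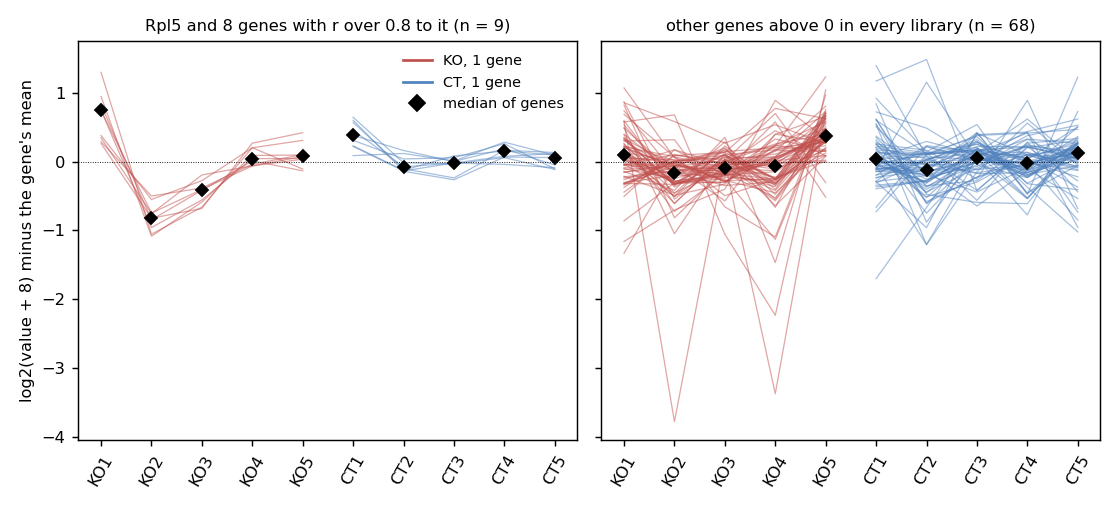
Log2(value + 8) of each gene minus its own mean over the 10 libraries, with KO (red) left of CT (blue), for Rpl5 and the 8 genes with r above 0.8 (left panel) and for 68 other ribosomal protein genes (right panel); a line joins the values of 1 gene without marking an order of libraries, and diamonds are medians. In the left panel the medians are 0.75 in knockout 1 and -0.82 in knockout 2, and in the right panel 0.10 and -0.16. The genes were split by r over these same libraries, so the contrast is not a test.

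The genes closest to Rpl5 in the whole table were not mainly ribosomal: of the nearest 20, 4 were in the set and 9 enclosed a snoRNA gene. Genes not found in the annotation by symbol, such as 2310014L17Rik and 0610011F06Rik, could not be looked up and are not among the 9. Eif4a2, an RNA helicase of translation initiation and host of several snoRNAs, had r = 0.98, and so did Tmem38b, an ion channel gene that encloses a copy annotated as 5S rRNA; both were named after their values were seen. Of 179 tested snoRNA hosts outside the set, 9 had an r above 0.8 and the median was -0.01. Knockout 1, the highest library for Rpl5, also had the fewest reads by the estimate above and the largest share in Tmem38b, Zfp101 and 0610011F06Rik, while knockout 2 had the smallest such share. The part of depth, of those 3 genes and of reads from the snoRNAs themselves in this profile was not tested, since the values are given per gene.

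The genes of the stalk proteins Rplp0, Rplp1 and Rplp2, which recruit the elongation factors, had overlapping values in KO and CT islets. Rplp0 had 1951.6, 2699.8, 2569.5, 2733.1 and 3117.7 in knockouts 1 to 5, against 2349.8, 2466.1, 2262.7, 2446.0 and 2937.3 in controls 1 to 5. Knockout 1, so high for Rpl5, was the lowest library here, and the log2 fold change was 0.06 ± 0.15 (SE).

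Rplp1 had 1899.1, 1580.1, 1704.4, 2420.8 and 2162.0 in knockouts 1 to 5, against 1785.6, 1824.4, 2105.9, 1780.2 and 2152.9 in controls 1 to 5. Rplp2 had 2207.7, 1842.0, 1289.1, 2538.0 and 2327.4 in knockouts 1 to 5, against 2029.8, 1448.9, 1944.0, 2101.4 and 1830.9 in controls 1 to 5. In both genes the genotypes overlapped and knockout 4 was the highest library. Their log2 fold changes of 0.01 ± 0.16 and 0.10 ± 0.19 (SE) turned negative under some alternatives: for Rplp1 it was -0.01 with upper-quartile scaling, and for Rplp2 it was -0.03 without controls 2 and 5.

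Rpsa, a small subunit protein also known as a laminin receptor, had 2055.3, 2457.5, 2386.2, 2594.9 and 3052.6 in knockouts 1 to 5, against 2090.4, 2513.4, 2953.8, 2165.3 and 2626.8 in controls 1 to 5. Knockout 1 was the lowest and knockout 5 the highest, and the log2 fold change of 0.02 ± 0.16 (SE) was far within the spread.

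Rps27a, made as a fusion of ubiquitin and a small subunit protein, had 1288.7, 1384.9, 1701.0, 1333.9 and 2216.9 in knockouts 1 to 5, against 1579.2, 1564.4, 1947.2, 1428.2 and 1709.3 in controls 1 to 5. Except for knockouts 3 and 5, the KO values were below all CT values. The log2 fold change was -0.08 ± 0.19 (SE).

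Rps19, mutated in many patients with Diamond-Blackfan anaemia in humans, had 806.4, 730.2, 604.2, 532.3 and 841.5 in knockouts 1 to 5, against 1213.4, 1028.5, 753.9, 724.2 and 402.4 in controls 1 to 5. The controls spread wider than the knockouts on both sides. The log2 fold change was -0.16 ± 0.28 (SE).

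Rps6, the small subunit protein that S6 kinase phosphorylates downstream of mTOR, varied widely. It had 2229.2, 1387.9, 2158.6, 1110.3 and 2875.7 in knockouts 1 to 5, against 2569.0, 760.3, 1591.5, 2610.1 and 1703.7 in controls 1 to 5. Knockout 5 was the highest and control 2 the lowest, and the log2 fold change of 0.12 ± 0.33 (SE) was -0.25 without controls 2 and 5.

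The pyrimidine run through which mTOR acts was looked for at the RefSeq transcription start of each gene (GRCm38.p6), as a C at the first base followed by at least 4 bases that are C or T, on the gene's own strand. It was found for 13 of the 59 ribosomal protein genes with an entry (22.0%), against 813 of 27025 genes (3.01%). Starts that are annotated a few bases away from the true one would be missed. The windows of 5 genes are printed, 10 bases before and 15 after the start, to show how the run differs in length; capitals mark the run.
Rplp2 (chr7:141447641-141447665, plus strand): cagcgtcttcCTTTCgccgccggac
Rps6 (chr4:86857353-86857377, minus strand): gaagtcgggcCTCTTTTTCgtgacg
Rps27 (chr3:90213634-90213658, minus strand): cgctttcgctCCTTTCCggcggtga
Rpl35 (chr2:39005117-39005141, minus strand): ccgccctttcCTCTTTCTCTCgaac
Rpl15 (chr14:18270972-18270996, minus strand): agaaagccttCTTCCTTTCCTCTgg

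The run is 5 bases long in Rplp2, 9 in Rps6, 7 in Rps27, 11 in Rpl35 and 13 in Rpl15. Rplp2 and Rps6 were described above, and Rps27 follows among the paralogues.

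Per kilobase of the longest annotated coding sequence, the highest levels were those of Rpl41 (28373 normalized counts per kb, averaged over the 10 libraries), Rpl5 (22046), Rps3 (16251), Rpl12 (9712) and Rpl37a (6179). Rpl41 encodes one of the shortest proteins known, so that its coding length is small; per kilobase of all annotated exons Rpl5 came first (5011). Rpl41 had 4284.1, 3168.9, 3348.2, 3092.3 and 4711.3 in knockouts 1 to 5, against 4031.5, 2975.4, 4068.2, 4841.1 and 4633.4 in controls 1 to 5. Rpl37a had 1327.6, 1630.4, 1460.7, 1696.2 and 2336.1 in knockouts 1 to 5, against 1730.9, 1350.6, 1914.1, 1686.5 and 1920.5 in controls 1 to 5. The genotypes overlapped in both, with log2 fold changes of -0.14 ± 0.16 and -0.04 ± 0.18 (SE).

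Among the lowest levels per kilobase of coding sequence were those of Rpl7l1 (322), Rpl10a (356), Rps27l (713) and Rpl22l1 (728). All 4 are described with their values in each library further on.

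Rpl7l1, a paralogue of Rpl7 that acts in assembly of the large subunit, was the member with the smallest unadjusted p. It had 386.9, 318.5, 254.7, 308.2 and 253.2 in knockouts 1 to 5, against 58.9, 129.2, 278.4, 285.8 and 104.4 in controls 1 to 5. All knockouts were above controls 1, 2 and 5, and controls 3 and 4 lay within the KO range. The log2 fold change was 1.002 ± 0.42 (SE, 95% limits 0.12 to 1.88). Its unadjusted limma p was 0.0282 and its adjusted p 0.942.

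Rpl7, its canonical counterpart, had 1271.0, 1596.6, 1705.8, 1351.1 and 2462.0 in knockouts 1 to 5, against 1238.1, 1306.9, 2127.8, 1708.7 and 1595.2 in controls 1 to 5. Its values overlapped throughout. The log2 fold change of 0.06 ± 0.21 (SE) was -0.02 without controls 2 and 5.

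Rps12l1, an annotated pseudogene, was the other gene with an unadjusted p under 0.05. It had 216.5, 43.3, 256.3, 0.0 and 0.0 in knockouts 1 to 5, against 174.0, 194.4, 124.3, 156.2 and 409.3 in controls 1 to 5. Knockouts 4 and 5 were at 0 and knockout 2 was low, while knockouts 1 and 3 lay within the CT range. The fitted log2 fold change was -2.15 ± 0.92 (SE), which depends on the added 8 because of the zeros, with an unadjusted limma p of 0.0328 and an adjusted p of 0.942. It shares sequence with Rps12, which was listed at 0 in most libraries here, so that reads of the Rps12 family may be split between copies and the row is uncertain. Rps12-ps3, a row of another copy, had 426.0, 466.6, 68.6, 235.3 and 498.0 in knockouts 1 to 5, against 123.6, 0.0, 0.0, 171.9 and 188.0 in controls 1 to 5. It was thus well above 0 in knockouts 4 and 5, where Rps12l1 was at 0, and its KO mean (339 ± 182) was above its CT mean (96.7 ± 91.4, SD, n = 5 each). In the authors' deposited table Rps12l1 had a log2 fold change of -1.04 and an unadjusted p of 0.341.

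The remaining paralogue pairs also overlapped between genotypes. Rpl22 had 1393.6, 905.4, 609.1, 719.5 and 988.8 in knockouts 1 to 5, against 893.2, 935.7, 1111.1, 688.6 and 648.0 in controls 1 to 5. Rpl22l1, a paralogue whose level Rpl22 restrains in mice, had 100, 140.4, 175.1, 440.2 and 296.6 in knockouts 1 to 5, against 215.7, 530.3, 241.4, 133.1 and 392.7 in controls 1 to 5. Control 2 was the highest for Rpl22l1 and knockout 1, the highest for Rpl22, was its lowest. Their log2 fold changes were 0.08 ± 0.25 and -0.42 ± 0.45 (SE), and that of Rpl22l1 was 0.07 without controls 2 and 5.

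Rps27 had 610.6, 656.6, 191.4, 80.0 and 847.3 in knockouts 1 to 5, against 1084.0, 429.5, 302.1, 473.3 and 333.6 in controls 1 to 5. Rps27l, a paralogue known as a p53 target, had 153.4, 225.3, 232.8, 367.4 and 330.5 in knockouts 1 to 5, against 194.9, 212.9, 266.8, 161.6 and 100 in controls 1 to 5. Knockout 4 was the lowest library for Rps27 and the highest for Rps27l. The log2 fold changes were -0.40 ± 0.58 and 0.47 ± 0.38 (SE), neither beyond the spread.

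Rps4x, from the X chromosome, had 904.2, 1009.0, 907.5, 629.8 and 1213.1 in knockouts 1 to 5, against 971.3, 1152.0, 1004.4, 824.1 and 901.1 in controls 1 to 5. Rps4l, its annotated pseudogene copy, had 71.0, 57.3, 103.4, 23.5 and 162.5 in knockouts 1 to 5, against 148.1, 39.3, 86.9, 125.9 and 79.6 in controls 1 to 5. In both genes knockout 4 was the lowest and knockout 5 the highest library. Their log2 fold changes were -0.08 ± 0.21 and -0.28 ± 0.58 (SE).

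Rpl3, at the heart of the peptidyl transferase region, ran between 1504.8 and 2552.3 in KO and between 1772.6 and 2035.6 in CT, and Rpl36a between 455.0 and 552.6 in KO and between 360.1 and 584.2 in CT. The KO values spread wider for Rpl3 and the CT values for Rpl36a. The muscle paralogue Rpl3l did not reach 10 in 5 libraries.

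A value of 0 in some library was found for 4 genes, of which 3 encode core proteins. Rpl18 had 0.0, 490.4, 524.7, 395.2 and 605.7 in knockouts 1 to 5, against 428.4, 575.2, 514.5, 445.7 and 440.0 in controls 1 to 5. Rps13 had 0.0, 276.6, 532.6, 289.4 and 440.0 in knockouts 1 to 5, against 304.8, 568.2, 494.7, 322.6 and 655.4 in controls 1 to 5. Both were at 0 in knockout 1 alone, and their fitted log2 fold changes of -1.14 ± 1.15 and -1.38 ± 1.06 (SE) rest on that library.

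Rpl10a had 241.7, 314.8, 189.9, 85.6 and 628.2 in knockouts 1 to 5, against 0.0, 298.3, 9.7, 84.8 and 462.5 in controls 1 to 5. Controls 1 and 3 were at or near 0, control 4 was just below the lowest knockout, and controls 2 and 5 lay within the KO range, with a fitted log2 fold change of 1.79 ± 1.05 (SE). That value was 1.003 without control 1, 2.47 without control 5 and 3.40 without controls 2 and 5, and 2.52 with a pseudocount of 1 and 1.201 with one of 32. Without controls 2 and 5 its unadjusted limma p was 0.000667 and its adjusted p 0.497. A 0 here is only a listed value, and whether it stands for absent RNA was not tested. Rps12l1 was the remaining gene with zeros.

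Rpl31, Rpl9 and Rps26, with larger fitted changes, were named after their values were seen. Rpl31 had 1873.2, 595.4, 967.8, 1240.0 and 2493.1 in knockouts 1 to 5, against 861.6, 538.4, 1413.2, 768.1 and 1017.4 in controls 1 to 5. Knockouts 1 and 5 were above all controls and the other knockouts among them, with a log2 fold change of 0.54 ± 0.34 (SE). Rpl9 was at 16.1 in knockout 2 and between 338.3 and 490.8 in the other knockouts, against 239.9 to 922.2 in CT. Rps26 was at 14.1 in knockout 4 and between 149.5 and 411.8 in the other knockouts, against 157.2 to 530.7 in CT. A single low knockout thus stood apart in each of the last 2, with log2 fold changes of -1.10 ± 0.77 for Rpl9 and -0.94 ± 0.67 for Rps26 (SE). Rpl9-ps6, a row of a copy of Rpl9, had 347.9, 391.2, 345.4, 61.2 and 571.9 in knockouts 1 to 5. In controls 1 to 5 it had 161.0, 0.0, 350.6, 452.2 and 260.5. It was thus well above 0 in knockout 2 and at 0 in control 2, the highest library for Rpl9. Whether reads were split between the 2 rows was not tested.

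Another 41 genes had log2 fold changes between -0.43 (Rpl23a) and 0.37 (Rpl14), 22 above and 19 below 0, with no unadjusted p under 0.0982. Of the large subunit these were Rpl4, Rpl6, Rpl8, Rpl13, Rpl13a, Rpl14, Rpl15, Rpl17, Rpl19, Rpl21, Rpl23, Rpl23a, Rpl24, Rpl26, Rpl27, Rpl27a, Rpl28, Rpl29, Rpl30, Rpl32, Rpl34, Rpl35, Rpl35a, Rpl36, Rpl37 and Rpl38, with means of 426 to 3060 in KO and 480 to 3095 in CT. Of the small subunit they were Rps3a1, Rps7, Rps9, Rps10, Rps14, Rps15, Rps15a, Rps16, Rps18, Rps21, Rps23, Rps24, Rps25, Rps28 and Rps29, with means of 561 to 2295 in KO and 628 to 2201 in CT.

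Ribosomal protein genes have many processed copies in the genome, and reads can be counted for a copy instead of its parent. The table held 119 rows named as such pseudogenes of 47 of the 81 genes, and together they came to 3.18% of the sum of the 81. For a few parents the copies were large: they reached 69.1% of the parent's mean for Rpl9, 51.4% for Rps23, 47.2% for Rpl10 and 38.8% for Rps13, chosen after their values were seen. Values of these parents are therefore uncertain.

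The genes that make, tune and use ribosomes gave no call either. Among other mRNAs with a terminal pyrimidine run, 8 of 20 were above 0 and the median log2 fold change was -0.07. Their most abundant gene, Eef1a1, the elongation factor that brings aminoacyl-tRNA, averaged 9913 ± 580 in KO and 9746 ± 897 in CT islets (SD, n = 5 each). Of the genes for ribosome biogenesis 27 of 59 were above 0, with a median of -0.03. Nop56, a core protein of the methylation-guiding snoRNPs and itself a snoRNA host with r = 0.93 to Rpl5, averaged 4654 ± 1996 in KO and 5164 ± 1490 in CT (SD, n = 5 each).

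For the separate ribosome of mitochondria 35 of 74 genes were above 0, with a median of -0.02, and at an unadjusted limma p under 0.05 there were 2 higher and 4 lower in KO, against the 5.01% of all genes. Mrps34, of its small subunit, averaged 195 ± 80.4 in KO and 71.9 ± 29.1 in CT islets, and Mrpl47, of its large subunit, 20.5 ± 9.57 in KO and 124 ± 94.3 in CT (SD, n = 5 each). All KO values of Mrps34 were above all CT values (108.0 to 310.2 in KO and 28.2 to 102.6 in CT), and all of Mrpl47 below (7.0 to 30.5 in KO and 55.2 to 273.4 in CT), a separation found for 0.862% of all genes. Mrps34 and Mrpl47 were named because they had the smallest p in each direction. Their adjusted p of 0.942 in limma with Benjamini-Hochberg adjustment did not pass.

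Of the translation factors 20 of 51 were above 0, with a median of -0.06. At an unadjusted limma p under 0.05 there were 1 higher and 1 lower in KO, against 5.01% of all genes. These, Eif2s3x and Eif3m, were named because they had the smallest p in each direction. Eif2s3x, a subunit of the factor that delivers the initiator tRNA, averaged 642 ± 270 in KO and 299 ± 86.2 in CT, and Eif3m, a subunit of the scaffold factor, 318 ± 82.8 in KO and 470 ± 22.6 in CT (SD, n = 5 each). The ranges of both genes were apart, 424.8 to 947.2 in KO and 161.6 to 381.6 in CT for Eif2s3x, and 226.9 to 429.8 in KO and 443.0 to 503.6 in CT for Eif3m. Such a separation was found for 0.862% of all genes. Neither passed, the adjusted p in limma with Benjamini-Hochberg adjustment being 0.942 for both.

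Of 21 genes of mTOR and Myc control 7 were above 0, with a median of -0.07 and none at an unadjusted p under 0.05. Eef2k, the kinase that inhibits the elongation factor Eef2, averaged 52.9 ± 39.9 in KO and 108 ± 30.5 in CT islets (SD, n = 5 each), with overlapping values.

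Of 11 genes tied to the 5S particle and the p53 route 8 were above 0, with a median of 0.36, and 2 were higher at an unadjusted p under 0.05; over all genes 47.6% were above 0, the median was -0.03 and 2.36% were higher at that p. Ccng1, a p53 target that encodes cyclin G1, had 865.4, 623.4, 818.7, 1228.2 and 1085.5 in knockouts 1 to 5, against 198.5, 375.4, 602.6, 649.8 and 367.7 in controls 1 to 5. Control 4 was the only control above the lowest knockout. On the log2 scale the difference was 1.14 ± 0.31 (SE), and in limma with Benjamini-Hochberg adjustment its adjusted p was 0.881. Ccng1 was named because it had the smallest p and the highest mean of the list. The other gene counted as higher, Bax, was low, at 68.3 ± 73.4 in KO and 9.20 ± 20.6 in CT (SD, n = 5 each). Log2 fold changes were 0.68 ± 0.41 for Cdkn1a, 0.36 ± 0.72 for Bbc3 and 0.22 ± 0.35 for Mdm2 (SE). Those of Mdm4, Heatr3 and Bccip were 0.37 ± 0.44, 1.05 ± 0.65 and 0.26 ± 0.33 (SE). Below 0 were Trp53 at -0.05 ± 0.56, Sesn1 at -0.11 ± 0.46 and Rrs1 at -1.22 ± 0.74 (SE).

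Without controls 2 and 5, whose Esr1 values go against their labels, 31 of the 81 ribosomal protein genes were above 0, their median log2 fold change was -0.03 and the difference in summed share was -0.0415 percentage points.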

How the data were processed

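The authors deposited 1 table of normalized counts per gene (signal values, not whole reads) for 10 libraries, with their log2 fold changes, test scores and p-values. DESeq2, HTSeq and STAR (version 2.4.0.1) were used per the submitters' processing notes; which step each served, the genome build and annotation are not given in the sources used here. Per the labels' protocols, libraries were stranded and read in pairs. Because low values are not whole multiples of 1 read, no count test was run. From the deposited values, limma 3.58.1 (R 4.3.3) was fitted on log2(value + 8), with a mean-variance trend and robust variances, across 11711 genes with at least 10 in at least 5 libraries, and p-values were adjusted by Benjamini-Hochberg over all of them. The fit was tested on simulated data. A fold change on this scale understates changes of low genes. The 1 row without a gene name, 0.00774% to 0.0251% of a library, was left out. Libraries were grouped by the genotype label; no 2 were identical. Gene coordinates and snoRNA genes came from GENCODE M21 (GRCm38) by symbol, and start windows from RefSeq. Percentages and r were computed in Python 3.11.15 (pandas 2.3.3). Total counts still ran between 5534386 in knockout 2 and 7358040 in knockout 1 after scaling. The estimated depths are rough, so no counting intervals are given.

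The members and gene lists were chosen with earlier results of these data known. Values in every library are given for Rpl5, Rpl10, Rpl12, Rps20, the stalk genes, Rpl11, Rpsa, Rps6, Rps27a, Rps19, genes with an unadjusted p under 0.05, paralogue pairs, genes with a 0 and the 5 highest and 5 lowest per coding length. From related lists up to 3 genes were named by smallest p or highest mean. The list of the 5S particle and the p53 route is an exception, all of its genes being named. Alternatives changed the scaling, filter, pseudocount, variance model, weights, acinar covariate and libraries. A few members enter every count and sum but are not reported singly here.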

Additional observations from a re-analysis of the deposited data

Results flagged for a closer look

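Of 74 groups of 5 libraries examined for a single library far from the rest, 4 had one, with a gap to its nearest neighbour above 0.71 of the group's range; chance gives about 1 in 20. Rpl5 in control 1, at 28738.3, stood above the other controls, and Rps27 in the same library, at 1084.0, did too. Rps12l1 in control 5 was at 409.294, above the other controls. The summed share of the 52 ribosomal protein genes without a snoRNA gene was 1.12664% in knockout 5, above the other knockouts.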

How the results depend on the processing

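No ribosomal protein gene had an adjusted p under 0.05 in limma under any alternative run, the lowest among the 33 genes examined singly being 0.497. The main count of 2 at an unadjusted p under 0.05 was 1 without trend and robust variances, 1 with the acinar covariate and 1 without controls 2 and 5, and ran between 1 and 4 with 1 library left out (4 without knockout 1); with library quality weights it was 2, but Rpl10 and Rps20 in place of Rpl7l1 and Rps12l1. Over all genes, 1 was called without trend and robust variances and 1 without controls 2 and 5, and 0 to 1 with 1 library left out, where 509 to 651 had an unadjusted p under 0.05. With 1 library left out, 22 (without knockout 5) to 45 (without knockout 2) of the 81 genes were above 0, their median ran between -0.10 and 0.04, the share difference between -0.119 and 0.0638 percentage points, and Grk5 between -0.76 and -0.36.

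Of 363 log2 fold changes of 33 named genes under 11 alternatives other than single libraries, 350 kept their direction and 13, in 9 genes, turned, all small. Upper-quartile scaling gave -0.010 for Rplp1. Library weights gave -0.055 for Rplp1, -0.096 for Rpl22 and -0.058 for Rplp2. The acinar covariate gave -0.018 for Rplp1, -0.14 for Rpl22, 0.040 for Rpl37a, 0.14 for Rps4l and -0.012 for Rpsa. Leaving out controls 2 and 5 gave 0.072 for Rpl22l1, -0.018 for Rpl7, -0.026 for Rplp2 and -0.25 for Rps6. The cause was not tested.

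Leaving out 1 library turned 14 genes: Rpl12 (-0.47 to 0.12), Rpl18 (-1.51 to 0.060), Rpl22 (-0.082 to 0.21), Rpl37a (-0.16 to 0.038), Rpl5 (-0.48 to 0.029), Rpl7 (-0.089 to 0.17), Rplp0 (-0.0091 to 0.16), Rplp1 (-0.076 to 0.077), Rps19 (-0.39 to 0.0058), Rps27 (-0.71 to 0.11), Rps4l (-0.56 to 0.049), Rps4x (-0.18 to 0.053), Rps6 (-0.16 to 0.31) and Rpsa (-0.051 to 0.091). No paired analysis was possible because the labels give no replicate numbers that tie KO to CT libraries. The table gives no whole reads, and how depth bears on low genes was not tested.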
